A study of Mus musculus with 6 samples.

Results

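Transcripts of 10 Sox genes were compared between Lgr5-positive and Lgr5-negative cells of the mouse mammary basal gate. The genes are Sox2, Sox4, Sox5, Sox6, Sox7, Sox9, Sox10, Sox11, Sox17 and Sox18, 10 of the 20887 gene symbols named on the array. They were found as every non-control probe whose RefSeq transcript belongs to one of these symbols, which gave 14 probes. Of these probes 9 were bright enough to be tested, and 7 genes had at least 1 of them. Sox2, Sox6 and Sox11 were not tested and are given by their values.

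The study measured RNA from 2 sorted fractions on 6 Agilent arrays of 2 colours, with 3 arrays per fraction. Both fractions were taken from virgin mammary glands of C57/B6 mice of the genotype lgr5-egfp-ires-creert2, so both carry EGFP and the tamoxifen-inducible recombinase CreERT2 in the Lgr5 locus. Both were Lin-negative, CD24-positive and CD29-high, the gate called P4 in the labels, and the Lgr5-positive fraction was GFP-positive while the Lgr5-negative fraction was GFP-negative. CD24 is a surface glycoprotein and CD29 is the integrin beta chain that is high on basal mammary cells. The sort read the reporter, not the Lgr5 protein. The labels used here give no age, no number of animals per array and no list of the Lin markers, and they do not say that replicates came from separate animals, so p-values measure the spread between these samples, which may be technical. Each sample was labelled with Cy5 and set against Cy3-labelled Universal Mouse Reference RNA, a mix of 11 mouse cell lines, on the same array. Values below are log2 ratios of Cy5 over Cy3 unless another scale is named, and differences are Lgr5-positive minus Lgr5-negative. Ratios were centred by loess on each array, so 0 is the trend of that array and not equal signal in both colours. A positive log2 ratio means more Cy5 relative to Cy3 than that trend. For Sox4 in Lgr5-positive replicate 1 the ratio was 1.34, with raw Cy5 of 1081.5 and raw Cy3 of 1180 to 1411 over the arrays.

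Sox proteins are transcription factors with a DNA-binding domain of the HMG-box type, first found in Sry, and they bind short A/T-rich motifs in the minor groove and bend the DNA. They fall into groups by sequence. Sox7, Sox17 and Sox18 form SoxF, which acts in the specification of blood vessel, arterial and lymphatic endothelium. Sox9 and Sox10 belong to SoxE, which acts in cartilage, neural crest and glia and is also expressed in mammary epithelium. Sox4 and Sox11 belong to SoxC, Sox5 and Sox6 to SoxD, which lacks a transactivation domain of its own and works with Sox9 in cartilage, and Sox2 to SoxB1, with roles in pluripotent and neural progenitor cells.

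Promoters are shown first, because Sox proteins are sequence-specific and because the array covers genes that SoxF proteins are known to act on. The RefSeq table used here, of assembly GRCm38.p6, gives 250 bases before to 50 bases after a gene's start. It had entries for 5 of the 10 Sox genes, namely Sox2, Sox4, Sox5, Sox6 and Sox11. Sox4 is shown because it is the one Sox gene with an entry that passed a test below, and Rasip1 because it had the largest fall among the vascular genes of the SoxF list with a single promoter entry. Rasip1 encodes a Ras-interacting protein needed for the lumen of blood vessels. The Sox4 stretch is chr13:28953700-28953949 on the minus strand and the Rasip1 stretch is chr7:45627287-45627536 on the plus strand. Both are the 250 bases before the start, 5′ to 3′, and no letter is capitalised because neither motif searched was found in them.
Sox4: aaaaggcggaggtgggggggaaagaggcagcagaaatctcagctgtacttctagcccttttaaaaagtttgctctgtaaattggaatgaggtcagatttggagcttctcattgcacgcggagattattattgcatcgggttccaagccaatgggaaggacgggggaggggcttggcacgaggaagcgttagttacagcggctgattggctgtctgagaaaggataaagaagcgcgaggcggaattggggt
Rasip1: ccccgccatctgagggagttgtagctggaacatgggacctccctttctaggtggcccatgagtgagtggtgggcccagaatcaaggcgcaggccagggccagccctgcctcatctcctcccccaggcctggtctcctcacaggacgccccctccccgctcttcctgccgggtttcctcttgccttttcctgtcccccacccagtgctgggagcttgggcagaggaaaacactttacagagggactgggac
The motifs searched on both strands were AACAAT and AACAAAG, which share their first letters but cannot match at one position together, and are forms of the core that Sox proteins bind. AACAAT was in 10.7% and AACAAAG in 5.85% of 32851 promoters of 300 bases, and 15.7% held at least 1 of them. Of the 5 Sox genes with an entry, 1 held a match, Sox6. Of the 24 genes of the SoxF list, 20 had an entry and 3 of those held a match, Tek, Mef2c and Erg. A gene was counted if any of its entries held a match, and Sox6 had 6 entries and Mef2c and Erg 3 each. The percentages above are per entry, so these gene counts are not on the same scale. A match is a run of letters, not a binding site, and its absence from this window says nothing about Sox binding elsewhere.

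All 6 arrays were on 1 slide and came from 1 scan. Median Cy5 signal was 135 to 166 on the Lgr5-positive arrays and 196 to 271 on the Lgr5-negative ones, over a background of 64 to 76, and in each of the 3 pairs of equal replicate number the Lgr5-negative array was brighter. Cy5 was well above background for 50.9% to 74.4% of probes. Arrays with the same number lay side by side on the slide with the Lgr5-positive one always first, so inside a pair the place on the slide and the group cannot be told apart. The labels do not say that arrays of the same number share animals or a sort. The pairing used below is inferred from the data. Only 6 arrays limit the precision of every value below. Lgr5, the gene whose reporter was sorted, had log2 ratios of 4.24, 5.36 and 5.01 in replicates 1 to 3 of the positive fraction and 2.84, 4.04 and 3.31 in the negative. The difference was 1.47, and it passed limma's test only with the replicate number as a block (adjusted p = 0.0021, against 0.245 without it).

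Among the 7 tested Sox genes, the SoxF genes Sox7, Sox17 and Sox18 were lower in the Lgr5-positive fraction, and Sox9, Sox10 and Sox4 were higher, while Sox5 differed by less than the spread between replicates. The differences ran from -2.07 for Sox7 to 0.91 for Sox10. Fitted on group alone by limma, 1 of 7 passed a Benjamini-Hochberg adjusted p under 0.05 over 15679 genes, Sox18, where 96 of all genes, or 0.612%, passed, 0.587% as lower and 0.0255% as higher. With the replicate number as a block, 6 of 7 passed, 3 higher and 3 lower, where 1211 genes, or 7.72%, passed. Of all genes 2.11% passed as higher and 5.61% as lower with the block. Over the 7 genes the median difference was 0.12, and over all genes it was 0.01.

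**Figure D1:**
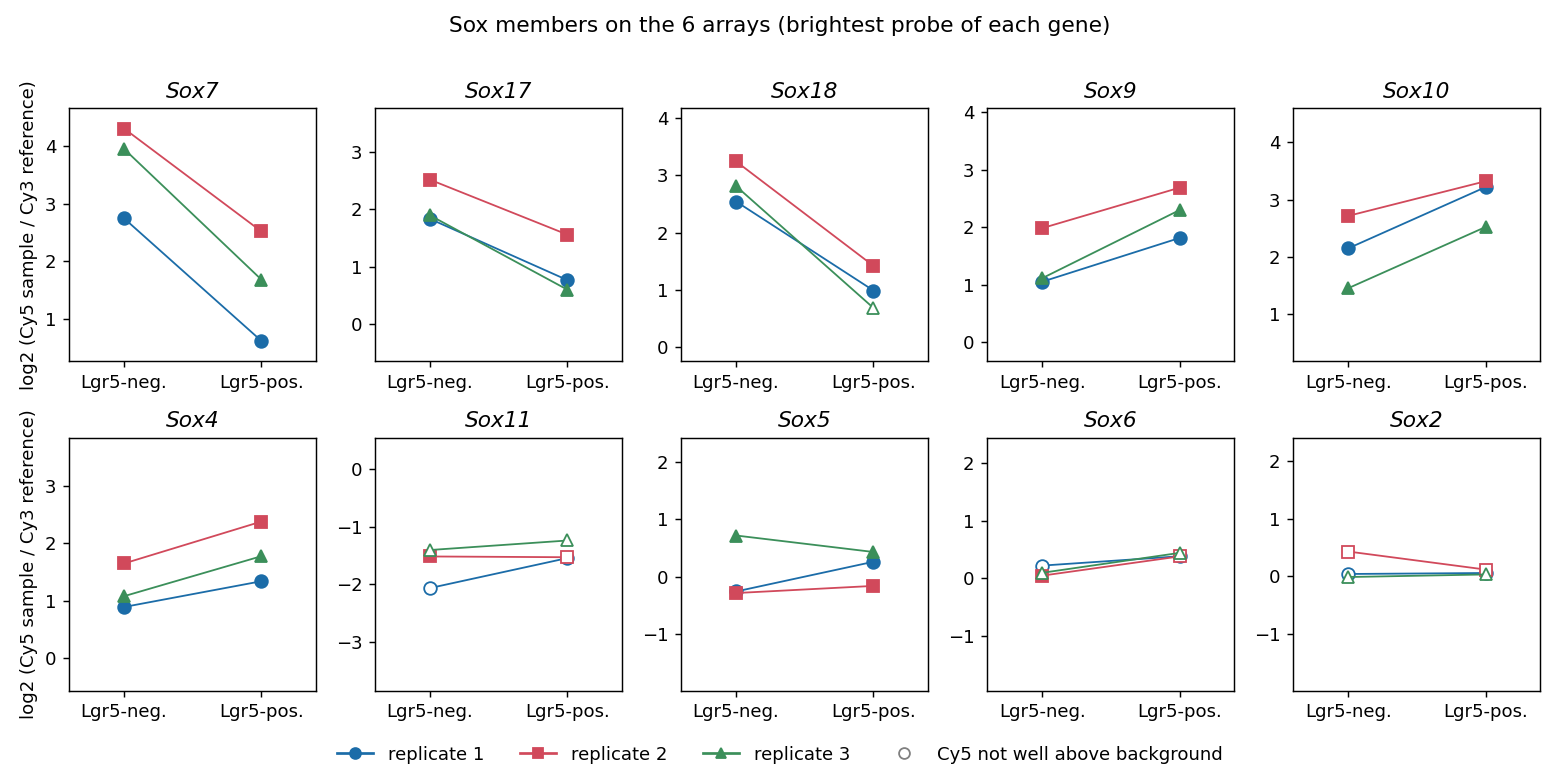
Log2 ratio of Cy5 sample over Cy3 reference (vertical axis, equal span in each panel) for the brightest probe of each of the 10 Sox genes, by fraction (horizontal axis), with lines joining arrays of the same replicate number and open points for Cy5 not well above background. Sox7, Sox17 and Sox18 fall from Lgr5-negative to Lgr5-positive in all 3 pairs, Sox9, Sox10 and Sox4 rise in all 3, and Sox2 is open on all 6 arrays.

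Sox7, a SoxF factor of early vascular and blood progenitors, had log2 ratios of 0.61, 2.52 and 1.68 in replicates 1 to 3 of the Lgr5-positive fraction and 2.75, 4.31 and 3.96 in the Lgr5-negative fraction. Every positive array lay below every negative one, as was the case for 8.14% of all genes. The mean was 1.61 ± 0.96 against 3.67 ± 0.82 (SD, n = 3 each), a difference of -2.07, or 4.19-fold lower. The pairs differed by -2.13, -1.79 and -2.28, so the spread between replicate numbers was wide while the differences within them were close. Sox7 fell by limma with the replicate block (SE 0.14, adjusted p = 0.00101) but did not pass on group alone (SE 0.57, adjusted p = 0.259). The fall is visible before normalization, with a raw Cy5 signal of 166, 605 and 324 in the positive replicates and 818, 2676 and 2702 in the negative. By p-value with the block Sox7 ranked 30 of the 15679 genes, the best rank of the 7 tested Sox genes.

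Sox18, a SoxF factor of endothelium that induces Prox1 at the start of lymphatic specification, had log2 ratios of 0.99, 1.42 and 0.69 in the Lgr5-positive replicates and 2.54, 3.24 and 2.81 in the Lgr5-negative ones. The groups did not overlap. The mean was 1.03 ± 0.37 against 2.86 ± 0.35 (SD, n = 3 each), a difference of -1.83, or 3.55-fold lower, with pair differences of -1.55, -1.82 and -2.12. This was the one Sox gene that fell in limma's fit on group alone (adjusted p = 0.0482), and it fell with the block as well (adjusted p = 0.00159). The call on group alone was lost in 8 of 11 other settings, with adjusted p between 0.0208 and 0.109 over them, and in 8 of 9 fits that left out an array or a replicate number. It held only without Lgr5-negative replicate 1. Cy5 was well above background on 2 of the 3 Lgr5-positive arrays, not on replicate 3, and raw Cy5 was 146, 249 and 140 in the positive replicates against 616, 1227 and 1272 in the negative.

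Sox17, a SoxF factor of arterial endothelium and of definitive endoderm, was read by a pair of probes that went the same way. The brighter probe had log2 ratios of 0.77, 1.56 and 0.60 in the Lgr5-positive replicates and 1.83, 2.51 and 1.89 in the Lgr5-negative ones, with no overlap. The mean was 0.98 ± 0.51 against 2.08 ± 0.38 (SD, n = 3 each), a difference of -1.10, or 2.15-fold lower. Sox17 fell with the replicate block (adjusted p = 0.00456) and did not pass on group alone (adjusted p = 0.285). The dimmer probe had 1.65, 3.19 and 1.73 in the positive replicates and 3.19, 4.30 and 3.76 in the negative, and positive replicate 2 reached the level of negative replicate 1. Its difference was larger, -1.56 or 2.94-fold lower, and with p adjusted over all passing probes it passed with the block (adjusted p = 0.00366, where 4.41% of probes passed) but not without it (0.565, where 0.101% passed). The reference channel of this dimmer probe was well above background on 2 of 6 arrays only.

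The 3 SoxF genes thus shared direction on all 3 replicate numbers, as 21.8% of all genes did in the lower direction. Their log2 ratios over the 6 arrays correlated at 0.913 for Sox7 with Sox17, 0.901 for Sox7 with Sox18 and 0.954 for Sox17 with Sox18, a description over arrays that share pairs and groups. With the block, the 3 calls stood in each other setting tried that could test the gene, and when each replicate number was left out. In bulk RNA such as this, fewer cells of a type and less RNA per cell cannot be told apart.

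**Figure D2:**
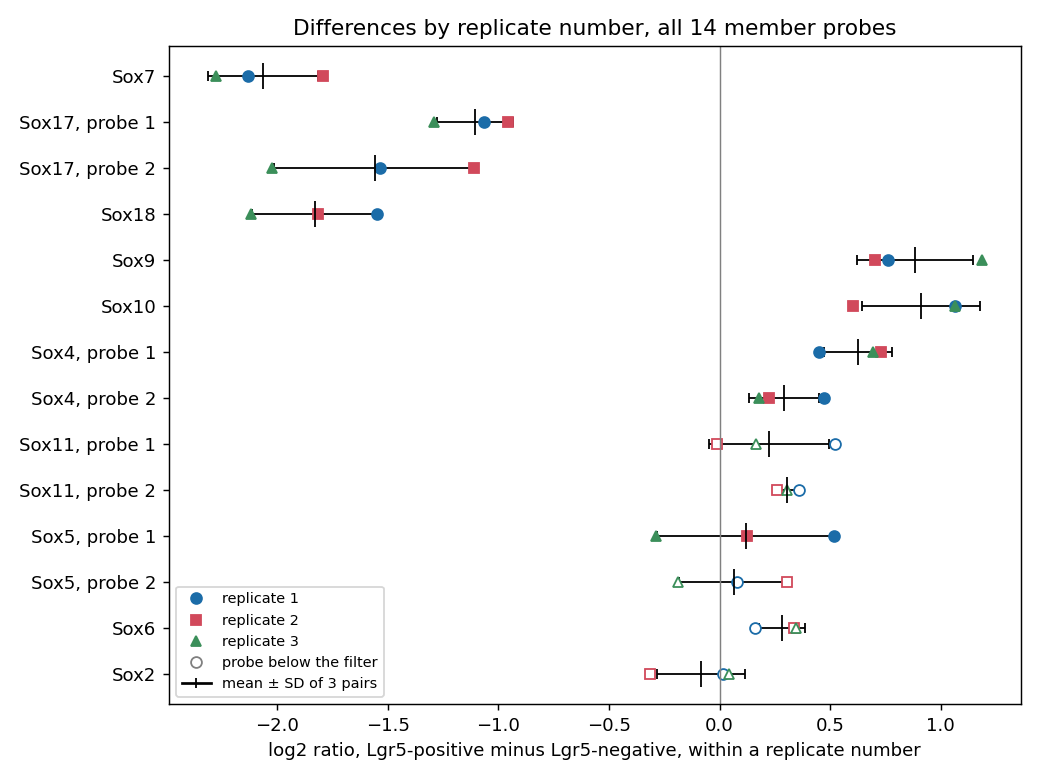
Difference in log2 ratio between the Lgr5-positive and Lgr5-negative arrays of one replicate number (horizontal axis) for all 14 probes of the Sox genes (vertical axis), with points for replicates 1 to 3, open where the probe was too dim to be tested, and a bar for the mean ± SD of the 3 pairs. The probes of Sox7, Sox17 and Sox18 lie left of 0 for every pair, from -0.96 to -2.28, and those of Sox9, Sox10 and Sox4 lie right of it.

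Of the SoxE genes, Sox10 and Sox9 were higher in the Lgr5-positive fraction, and Sox8 is given further on. Sox10, the factor that drives glial and melanocyte fates from neural crest and is also expressed in mammary epithelium, had log2 ratios of 3.22, 3.32 and 2.52 in the Lgr5-positive replicates and 2.15, 2.71 and 1.46 in the Lgr5-negative ones. The ranges overlapped, since positive replicate 3 lay below negative replicate 2, but each positive array was above the negative array of the same number. The mean was 3.02 ± 0.43 against 2.11 ± 0.63 (SD, n = 3 each), a difference of 0.91, or 1.88-fold higher, with pairs at 1.07, 0.60 and 1.07. Sox10 rose by limma with the replicate block (SE 0.14, adjusted p = 0.0130) and did not pass on group alone (adjusted p = 0.566). The blocked call stood in all 12 other settings and without each replicate number, but with median centring the difference was 0.47 (adjusted p = 0.0324).

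Sox9, a factor of cartilage and of several epithelial progenitors, was read by 1 probe in 10 spots, with an outlier-flagged spot left out on 2 arrays. Its log2 ratios were 1.81, 2.69 and 2.30 in the Lgr5-positive replicates and 1.05, 1.98 and 1.11 in the Lgr5-negative ones. Negative replicate 2 was above positive replicate 1, and each pair had the positive array higher. The mean was 2.26 ± 0.44 against 1.38 ± 0.52 (SD, n = 3 each), a difference of 0.88, or 1.85-fold higher, with pairs at 0.76, 0.70 and 1.19. Sox9 rose with the replicate block (adjusted p = 0.0144) and did not pass on group alone (adjusted p = 0.504). The blocked call was lost when arrays were centred on their median in place of loess (0.38, adjusted p = 0.0507) and without replicate 2 (adjusted p = 0.0844).

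Sox4, a SoxC factor that acts in progenitor survival and in the response to TGF-beta, had the smallest rise of these genes. Its brighter probe had log2 ratios of 1.34, 2.38 and 1.77 in the Lgr5-positive replicates and 0.89, 1.65 and 1.08 in the Lgr5-negative ones. The mean was 1.83 ± 0.52 against 1.21 ± 0.39 (SD, n = 3 each), a difference of 0.62, or 1.54-fold higher, with pairs at 0.45, 0.73 and 0.70. It rose with the replicate block (adjusted p = 0.0300) and did not pass on group alone (adjusted p = 0.818). The other probe had a smaller difference, 0.29, with pairs at 0.47, 0.22 and 0.18, and did not pass with the block (p adjusted over probes 0.274). The blocked call of Sox4 was lost in 5 of 12 other settings, among them the mean of both probes (adjusted p = 0.0555), and without replicate 2 (adjusted p = 0.209) or replicate 3 (adjusted p = 0.0863).

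The raw Cy5 signal of these genes was not higher in the Lgr5-positive fraction in most pairs. For Sox10 it was 1207.5, 2186.5 and 1310 in the positive replicates and 1225, 2405 and 1582.5 in the negative. For Sox9 it was 1001, 2835 and 1983 against 1035, 2996 and 1645, and for Sox4 1081.5, 3357 and 1983 against 1220.5, 3191 and 2249. Their log2 ratios, which are set against the reference channel and centred by loess on each array, were higher in all 3 pairs for each gene, as for 22.5% of all genes. Median centring moved the median difference of all genes to -0.29, and Sox10 stood 0.76, Sox9 0.67 and Sox4 0.43 above that median, while Sox7, Sox18 and Sox17 stood at -1.75, -1.41 and -0.86 from it. The part of array brightness in these differences was not tested.

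**Figure D3:**
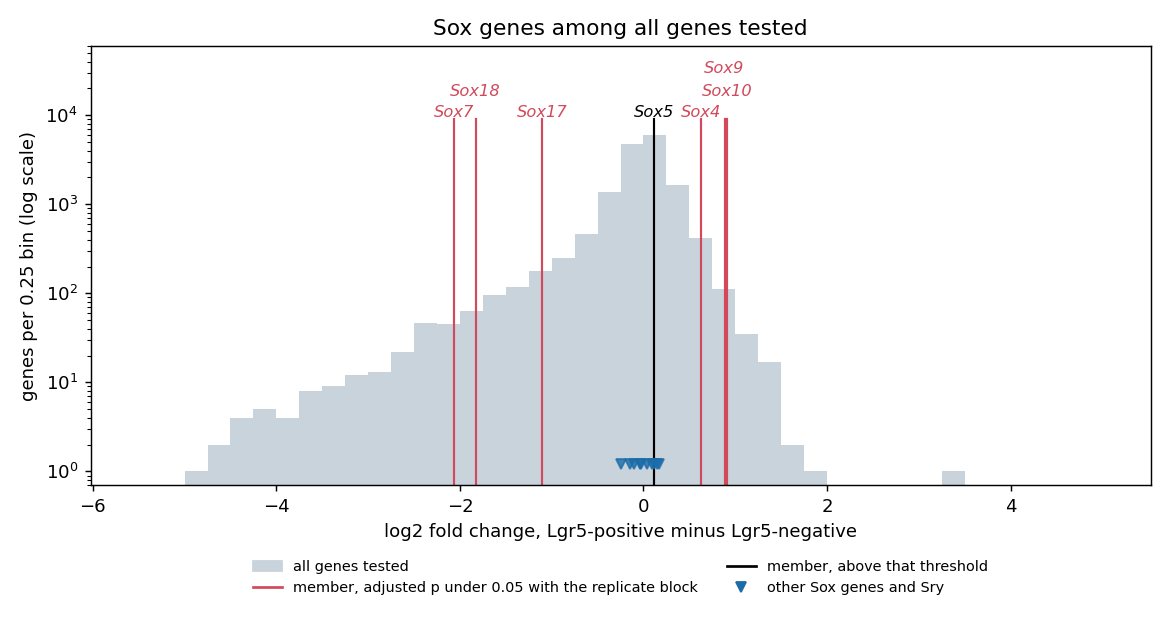
Number of genes per 0.25 bin of log2 fold change on a log scale (vertical axis) against log2 fold change, Lgr5-positive minus Lgr5-negative (horizontal axis), for the 15679 genes tested, with lines for the 7 tested Sox genes and triangles for 10 further Sox-family genes. The called Sox genes lie at -2.07 to -1.10 and at 0.62 to 0.91, on both sides of the bulk of genes, and the triangles lie between -0.25 and 0.17.

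The SoxD genes gave no call. Sox5, which works with Sox6 and Sox9 in chondrocytes, had log2 ratios of 0.26, -0.16 and 0.43 in the Lgr5-positive replicates and -0.26, -0.28 and 0.72 in the Lgr5-negative ones for its bright probe. The pairs went both ways, at 0.52, 0.12 and -0.29. The difference was 0.12, with a 95% interval of -0.29 to 0.52 with the replicate block (adjusted p = 0.755, limma), so a difference of the size seen for Sox10 lay outside that interval. Averaged over both colours this probe was brighter than 98.6% of probes, with raw Cy5 of 27462 to 66133 and raw Cy3 of 40529 to 53080. Yet the other Sox5 probe was well above background in Cy5 on 0 of 6 arrays, with raw signals of 72.5 to 102. Which of the probes reads Sox5 in these cells was not tested. Sox6 was well above background on 1 array of each fraction, positive replicate 1 and negative replicate 2. Its log2 ratios were 0.38, 0.38 and 0.44 in the positive replicates and 0.22, 0.05 and 0.10 in the negative, which did not overlap, as for 4.06% of tested genes in that direction. Without a filter on dim probes Sox6 did not pass with the block (adjusted p = 0.269).

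Sox11, the other SoxC factor, known from neuronal progenitors, was read by a pair of dim probes. The first was well above background on Lgr5-negative replicate 2 only, with log2 ratios of -1.54, -1.53 and -1.24 in the positive replicates and -2.06, -1.51 and -1.40 in the negative. The second was so on Lgr5-positive replicate 3 only, with -1.45, -1.54 and -0.45 against -1.81, -1.79 and -0.76. The reference channel was well above background on all 6 arrays for both probes. Sox2, the pluripotency factor, was well above background on 0 of 6 arrays in either colour, with raw Cy5 of 73.5 to 110. Its transcript was not detectable at this signal, which is not to say that it is absent.

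A further 9 Sox genes and Sry were tested on the same arrays, Sox1, Sox3, Sox8, Sox12, Sox13, Sox14, Sox15, Sox21, Sox30 and Sry. None of these 10 passed limma's fit on group alone or with the block (lowest adjusted p 0.9998 and 0.303), and 0 of 10 reached an unadjusted p under 0.05 in either fit, where 1285 and 3347 of all genes did. Their differences ran from -0.25 to 0.17 with a median of 0.0058. Sox8, the third SoxE gene, differed by 0.09, with pairs at -0.22, 0.15 and 0.34. Sry, which lies on the Y chromosome, had Cy5 well above background on 5 of 6 arrays, at raw signals of 116 to 310. Whether this signal came from Sry transcript was not tested. A dim signal above background does not by itself identify the transcript, for this or the other probes.

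The genes that SoxF proteins act on, or act with, in vessels lay on the same side as Sox7, Sox17 and Sox18. Of 24 listed genes 22 were tested and 21 had a negative difference, with a median of -1.32 against 0.01 over all genes. With the replicate block 15 fell and 0 rose, and on group alone 3 passed as lower by limma, Egfl7, Gata2 and Tie1. Among all genes 5.61% fell with the block and 0.587% on group alone. Tie1 was well above background on 0 of 3 Lgr5-positive arrays and entered the test only through the Lgr5-negative ones, so its call is not a valid one. Without it 2 genes fell on group alone and 14 with the block, and the median was -1.20 over 21 genes. Egfl7, an endothelial secreted protein, was 9.85-fold lower (-3.30, adjusted p = 0.0289 on group alone and 0.00352 with the block). All 3 calls on group alone were lost when Lgr5-positive replicate 1 or 3, Lgr5-negative replicate 2 or 3, or both arrays of replicate 2 or 3 were left out, and 8 genes were called without Lgr5-negative replicate 1. Cdh5, the endothelial cadherin of adherens junctions, was 7.18-fold lower (-2.84, pairs -3.21, -1.67 and -3.65), with an adjusted p of 0.00521 with the block. Rasip1 was 5.75-fold lower (-2.52, adjusted p = 0.00245 with the block) and Cldn5, the tight junction claudin of vessels, 4.88-fold lower (-2.29, adjusted p = 0.0338 with the block). Cldn5 lost that call without replicate 3 (adjusted p = 0.0623), and both Cdh5 and Cldn5 lost it with the scanner software's own ratio (adjusted p = 0.0503 and 0.0954), under which 9 genes of the list fell. Kdr, the main VEGF receptor of endothelium, is singled out after its values were seen, since its bright probe differed by 0.18 and another probe by -2.66. Efnb2, 1 of the 15 falls with the block, is singled out likewise, since its bright probe differed by -0.71 and another probe by 0.12. For Nrp2 and Vcam1, which fell with the block too, another probe was also lower (-0.64 and -0.97). The endothelial marker list, which shares 6 genes with this one, had 11 of 12 negative differences, 9 falls with the block (4 with the scanner's ratio), 3 on group alone, and a median of -2.10. Without Tie1 there were 8 falls with the block and 2 on group alone. Its mean log2 ratio was 1.52 to 2.65 on the Lgr5-positive arrays and 3.36 to 4.01 on the Lgr5-negative ones, and 10 of 12 markers were well above background on all Lgr5-positive arrays, Tie1 on none of them. Plvap, a vessel fenestration protein, was 5.30-fold lower (-2.41, its other probe -1.02) and Ptprb, an endothelial phosphatase, 5.07-fold lower (-2.34, its other probe -0.70). The part of endothelial cell number in the SoxF differences was not tested.

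Of 7 lymphatic genes, 4 were tested, with Lyve1 falling in both fits and Pdpn rising with the block. Among all genes 2.11% rose and 5.61% fell with the block, and 0.587% fell on group alone. Lyve1, a hyaluronan receptor of lymphatic vessels, was 17.3-fold lower (-4.12). Mmrn1, a multimerin of lymphatic endothelium and platelets, was well above background on 0 of 3 Lgr5-positive arrays and on 3 of 3 Lgr5-negative ones. It entered the test only through the latter, and no call or fold is given for it. Pdpn, a mucin that basal epithelium also carries, was 1.53-fold higher (0.61, adjusted p = 0.0445), a call lost without any 1 of the replicate numbers. The fall of Lyve1 held with the block without each number, whereas on group alone it was lost without replicate 2 or 3, without Lgr5-positive replicate 1 or 3 and without Lgr5-negative replicate 2 or 3. Prox1, the lymphatic factor that Sox18 induces, was too dim to be tested.

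**Figure D4:**
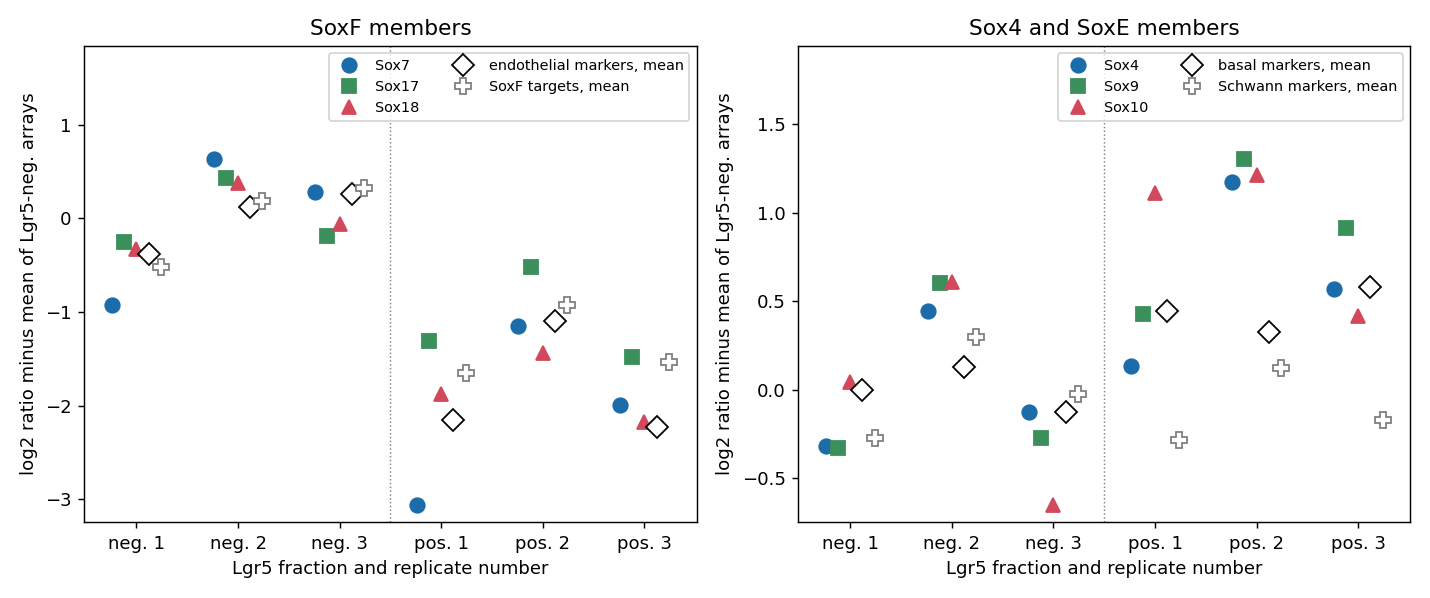
Log2 ratio minus its mean over the Lgr5-negative arrays (vertical axis) on each of the 6 arrays (horizontal axis), for the SoxF genes with the means of the endothelial markers and the SoxF list (left) and for Sox4, Sox9 and Sox10 with the means of the basal and Schwann markers (right). On the left the SoxF genes and both lists lie below 0 on every Lgr5-positive array, and on the right the basal marker mean lies above 0 on each of them, while the Schwann mean lies on both sides.

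Genes tied to SoxE in glia and neural crest had no common direction. Of 19 listed 16 were tested, 9 with a positive and 7 with a negative difference, with a median of 0.05. On group alone 0 passed by limma, and 3 had an unadjusted p under 0.05, as did 1285 of all 15679 genes. With the block 1 rose, Nrcam, a neuronal and glial adhesion molecule (1.19, adjusted p = 0.00521), and 3 fell, where 2.11% and 5.61% of all genes did. Among the falls were Ret, a receptor tyrosine kinase of enteric neural crest (-1.10, adjusted p = 0.00492), and Ednrb, the endothelin receptor of neural crest (-0.91, adjusted p = 0.0138). The calls of Nrcam, Ret and Ednrb were lost without replicate 2, with adjusted p of 0.0590, 0.0574 and 0.125, and that of Ret with the scanner's ratio (0.0943). Without replicate 2 the list had 0 calls with the block. Ret was well above background on 1 of the 3 Lgr5-positive arrays. Schwann cell markers had a median difference of 0.06 over the 7 tested. In limma's fits 0 rose, and 1 fell with the block (0 at an unadjusted p under 0.05 on group alone). The melanocyte list had a median of -0.02, and 0 of 5 tested melanocyte markers passed in either fit of limma, nor at an unadjusted p under 0.05 (0 in both). The mean log2 ratio of the Schwann list was -0.07 to 0.34 on the Lgr5-positive arrays and -0.05 to 0.51 on the Lgr5-negative ones.

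Basal markers all had positive differences, 11 of 11, with a median of 0.41 that became -0.01 under median centring, where the median of all genes was -0.29. With the block 4 rose, and on group alone 0 did by limma (4 at an unadjusted p under 0.05, as were 1285 of all 15679 genes). Cdh3, the P-cadherin of basal cells, rose by 1.2 (adjusted p = 0.0280) and Oxtr, the oxytocin receptor of contractile myoepithelium, by 0.77 (adjusted p = 0.0213). Cnn1, a smooth muscle calponin, and Krt17, a basal keratin, rose by 0.62 each. All 4 calls were lost without replicate 2, with the scanner's ratio and with the trended robust prior, and 1 of them, that of Cdh3, stood without replicate 3. All 11 basal markers were well above background on all 6 arrays, and their mean log2 ratio was 3.86 to 4.11 on the Lgr5-positive arrays and 3.41 to 3.66 on the Lgr5-negative ones. Luminal hormone-sensing markers, which estrogen-responsive cells carry, were lower, with 6 of 8 falling with the block (3 without replicate 2) and a median of -1.04, led by Areg (-2.25) and Ly6a (-1.63). Pericyte markers (3 of 7 lower with the block, median -0.58) and fibroblast markers (4 of 7 lower, median -0.53) were lower as well. Luminal progenitor markers had 1 rise and 2 falls of 6 (median -0.19) and leukocyte markers 1 fall of 8 (median 0.06). Beside these counts, 2.11% of all genes rose and 5.61% fell with the block. Single calls in lists this short are no result about a list. Without replicate 2 the pericyte, luminal progenitor and leukocyte lists had 0 calls with the block and the fibroblast list 1. The part of these cell types in the Sox differences was not tested.

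The remaining lists held few calls with the block and 0 on group alone by limma. Among all genes 2.11% rose and 5.61% fell with the block, so single calls in lists this short are no result about a list. On group alone 1, 2, 1 and 2 genes had an unadjusted p under 0.05 in the order given here, as did 1285 of all 15679 genes. In the Sox9 and SoxD list for cartilage and ducts, 11 of 15 genes were tested. Col9a2, a cartilage collagen chain, rose by 0.81 (adjusted p = 0.0106). Comp, a cartilage matrix protein, was well above background on 0 of 3 Lgr5-positive arrays, and no fold is given for it. It entered the test only through the Lgr5-negative arrays, so its p is no valid call, and without it 0 genes of the list fell. In the SoxC list, 8 of 12 were tested, with Mex3a, an RNA-binding protein of intestinal progenitors, higher (0.84, adjusted p = 0.0251) and Stmn2, a neuronal stathmin, lower (-0.76, adjusted p = 0.0396). In the Sox2 list, 8 of 11 were tested and Prom1, a membrane protein of progenitor and luminal cells, fell (-0.86, adjusted p = 0.0125). Among 10 effectors of beta-catenin, which several Sox proteins bind, Lgr5 was higher and Ccnd1, the cyclin of early cell cycle, was lower (-2.01, adjusted p = 0.0135). Each of the calls of Col9a2, Mex3a, Stmn2, Prom1 and Ccnd1 was lost without replicate 2, with adjusted p of 0.0925 to 0.232, and those of Mex3a and Stmn2 without replicate 3 (0.0554 and 0.0873). Medians of these 4 lists were -0.02 (0.05 without Comp), 0.16, 0.18 and 0.25. They were all negative under median centring, between -0.30 and -0.13, where the median of all genes was -0.29. Over all 6 pathway lists, 75 of 91 genes were tested, and 3 were lower on group alone, 22 lower and 4 higher with the block. Without Tie1 and Comp these were 2, 20 and 4 of 73 genes. The 4 higher genes include Lgr5, whose reporter was used to sort the fractions.

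For each Sox gene with Cy5 well above background on all 6 arrays, the 3 tested genes with the most similar log2 ratio over the 6 arrays were taken by Pearson correlation. Those of Sox7 were Thbd, the endothelial thrombin receptor thrombomodulin, with Islr2 and Abcg1 (0.996, 0.995 and 0.9925). Those of Sox17 were Itm2a, Cmtm8 and Vtn (0.994, 0.993 and 0.991). Those of Sox10 were Krt71, a keratin, with Pdlim3 and Cep131 (0.993, 0.988 and 0.986). Those of Sox9 were Coq10b, Dennd2a and Atp6v1c2 (0.9975, 0.995 and 0.994), those of Sox4 were Rem2, Sarnp and Tpbg (0.996, 0.991 and 0.991), and those of Sox5 were Gm16863, Vash1 and Rrnad1 (0.9915, 0.988 and 0.986). The correlations are picked as the highest of all genes over 6 arrays that share pairs, so they are a description with no test. Sox18 was left out here because it was well above background on 5 arrays. Sox4 correlated with Sox9 at 0.969, and Sox9 with Sox10 at 0.780.

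The order of the Sox genes by size of difference was led by Sox7 and Sox18 on the lower side, and by Sox10 and Sox9 on the higher side, whose differences of 0.91 and 0.88 lay within each other's 95% intervals with the block (0.58 to 1.25 and 0.55 to 1.22). The interval of Sox4 was 0.33 to 0.92. On the lower side the intervals were -2.40 to -1.74 for Sox7, -2.17 to -1.48 for Sox18 and -1.40 to -0.80 for Sox17.

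**Figure D5:**
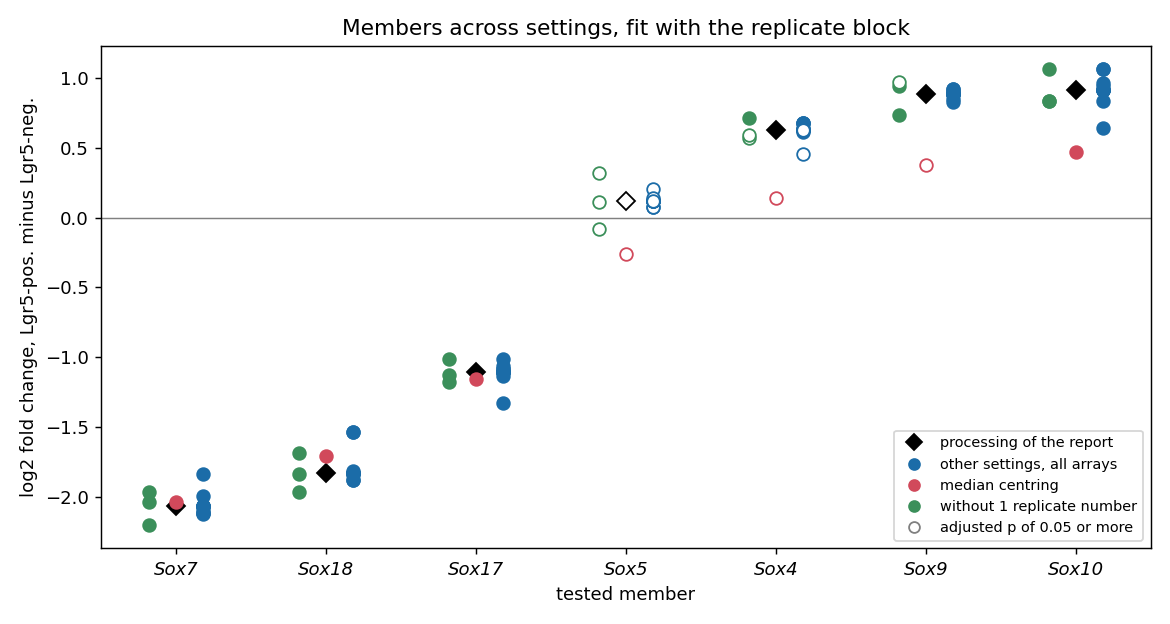
Log2 fold change, Lgr5-positive minus Lgr5-negative (vertical axis), for the 7 tested Sox genes (horizontal axis) in the fit with the replicate block, under the processing used here, other settings, median centring and without 1 replicate number, with open points for an adjusted p of 0.05 or more. Sox7 stays between -2.20 and -1.84, Sox18 between -1.97 and -1.54 and Sox17 between -1.33 and -1.01, all filled, whereas Sox4 and Sox9 have open points and Sox5, open throughout, lies on both sides of 0.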

How the data were processed

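Intensity values were the authors' deposited scanner output. The submitters' processing notes name Agilent Feature Extraction 11.0, and it is 11.0.1.1 per the file headers, on an array design annotated on mm9. The files give median spot and background intensity in both colours. The log10 ratio of processed signals in the same files is the scanner software's, per the file headers, and was used as an alternative. The deposited series table holds log2 ratios, centred on each probe's median by the authors as far as its values show, and was a further alternative; its correlation with the centred scanner ratio was 0.920 to 0.950, and the medians of its 6 columns were -0.0016, 0.03 and 0.02 (positive replicates 1 to 3) and 0.0064, -0.02 and -0.05 (negative replicates).

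From these, median signals were corrected with normexp (offset 50) and normalized by loess within arrays in limma 3.58.1 under R 4.3.3. Control and outlier-flagged spots had weight 0 and flagged spots were left out, and spots of a probe were averaged, giving 55681 probes. Of 29150 probes with a RefSeq transcript, 27509 were named, with gene names alone taken from a RefSeq table (GRCm38.p6). Probes with Cy5 well above background on at least 3 of 6 arrays were kept (34552), and the brightest stood for its gene. Left out were 11 genes whose brightest probe had every spot flagged on some array, leaving 15679. Groups were compared by lmFit and eBayes, two-sided, Benjamini-Hochberg adjusted over all genes, at 0.05. The script was tested on simulated data.

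Replicate numbers 1 to 3 were taken to pair the arrays from the data, not from the labels. Deviations of same-numbered arrays from their group means correlated at 0.810, 0.819 and 0.675 over genes, each above the limit of 0.1. The fit with the number as a block is therefore given beside the fit on group alone. Shared animals, a shared sort and neighbouring places on the slide cannot be told apart as the source of these correlations. The named genes are all 10 Sox genes with every probe, the other Sox genes and Sry, Lgr5, in each list up to 4 genes past the threshold in either fit by size of change or else 2 by lowest p, and the 3 genes most alike each Sox gene bright on all arrays. Members, lists and this rule were chosen with earlier results of these data known. Counts without genes that were above background on no array of 1 group were added after seeing the data. The call of 1 gene in these lists is not reported here by name.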

Additional observations from a re-analysis of the deposited data

How the results depend on the processing

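Fitted on group alone, the count of called genes, 96 as reported, became 9 with median centring, 44 with probes well above background on all 6 arrays, 35 over all passing probes, 312 with array weights, 55 with a trended robust prior, 1211 with the replicate block and 1349 with it as a random term, and 0 to 371 when arrays or replicate numbers were left out. The Sox genes called, 1 as reported, became 0 with no background correction, offset 16, median centring, the scanner ratio, the deposited table, no filter, the filter on all 6 arrays, all passing probes and the trended prior, 6 with either form of the block, and 0 to 1 with arrays left out. Under the filter on all 6 arrays Sox18 was not tested, so the 0 there is not a lost call. In limma's fit on group alone as reported, 5 of the 7 tested Sox genes had an unadjusted p under 0.05, as did 1285 of all 15679 genes. Genes called in the pathway lists, 3 as reported, became 0 with median centring, 1 with no filter, 1 with the filter on all 6 arrays, 0 over all passing probes, 7 with array weights, 26 with the replicate block, 25 with the random block, and 0 to 10 with arrays left out. The 3 include Tie1 and the 26 include Tie1 and Comp, whose calls are not valid. Without these genes 2 were lower on group alone, and 20 were lower and 4 higher with the replicate block. With the replicate block, the 1211 genes became 5790 with median centring (128 higher, 5662 lower), 738 with the scanner ratio, 753 with the deposited table, 96 with no replicate block, and 326 to 1397 without a replicate number, the lowest without replicate 2. The 6 Sox genes became 1 and the 26 list genes 3 with no replicate block; the list genes were 17 with the scanner ratio and 11 to 29 without a replicate number, 11 without replicate 2. Sox5 reversed with median centring to -0.26 in both fits, which was 0.03 above the median of all genes in that setting. Over the fits without arrays or replicate numbers Sox5 ran from -0.0814 to 0.45 on group alone and from -0.0814 to 0.32 with the block. The causes of these changes were not tested. A slide or scan block was not run, since there was 1 slide and 1 scan. Signal over background limits Sox2, Sox6 and Sox11 most, and Sox18 in the Lgr5-positive fraction. The pairing of replicate numbers changed the call of Sox4, Sox7, Sox9, Sox10 and Sox17.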
